A study of Sus scrofa with 6 samples.

Results

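Respiratory complex I (NADH:ubiquinone oxidoreductase) was examined through the genes of its subunits in the ventricular myocardium of minipigs with descending aortic constriction (DAC). The nuclear subunits were the genes whose symbol in the deposited table starts with NDUFA, NDUFB, NDUFC, NDUFS or NDUFV, without the NDUFAF assembly factors. The mitochondrially encoded subunits were ND1, ND2, ND3, ND4, ND4L, ND5 and ND6 on the mitochondrial chromosome. The rule took 31 nuclear and 7 mitochondrially encoded genes, 38 of the 13288 genes in the table. It reads symbols and positions and no measured value, but the members were chosen with earlier results of these data known. Another 7 nuclear subunits had no symbol in the table. The identifiers of NDUFA7, NDUFB1 and NDUFS6 gave their symbols, and the unnamed genes at the RefSeq positions of NDUFS7, NDUFV3, NDUFA12 and NDUFA3 on Sscrofa11.1 are given under those names. These 7 are described beside the members and are not counted among them. NDUFC1 is not analysed here.

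RNA was sequenced from 3 sham-operated Tibetan minipigs (sham replicates 1 to 3) and from 3 with a constricted descending aorta (DAC replicates 4 to 6). All were males without any engineered allele, both groups underwent surgery, and cardiac tissue was taken at week 12 after it. Their age is not given in the sources used here. The values are FPKM, fragments scaled to the length of the transcript and to the size of the library, which allows levels to be compared between genes of different length. Each library came from a separate animal of 1 breed and 1 surgical procedure, so the spread between replicates is between animals. The constriction was the only difference that the labels give.

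Complex I takes electrons from NADH, passes them along a chain of iron-sulfur clusters to ubiquinone, and pumps protons across the inner mitochondrial membrane. Its matrix arm holds the redox centers, all in nuclear-encoded core subunits, and its membrane arm pumps protons through core subunits that mitochondrial DNA encodes. Accessory subunits, all nuclear-encoded, surround this core. In the heart the complex is a main entry point of electrons into oxidative phosphorylation. The mitochondrial genes are transcribed as long precursors that are cut into messenger RNAs, whereas each nuclear gene has its own promoter.

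On average, nuclear subunits were lower and mitochondrially encoded subunits higher in the DAC myocardium. The mean log2(FPKM + 1) was lower in the DAC group for 24 of the 31 nuclear subunits (77.4%, beside 53.4% of all genes tested). It was higher for all 7 mitochondrially encoded subunits, but ND2, ND3 and ND5 were below 0 after quantile normalization, where the median of the 7 was 0.014, and ND2 was below 0 without DAC replicate 5. Their median log2 fold change was -0.18 for the nuclear and 0.28 for the mitochondrially encoded subunits, beside -0.02 over the 11029 genes tested. With the 7 subunits that lack a symbol, 31 of 38 nuclear genes averaged lower after DAC, with a median of -0.19. Differentially expressed genes (DEGs) were called at an unadjusted limma P under 0.05, whatever the fold change. Of the nuclear subunits, 1 was a downregulated DEG (3.23%, beside 5.27% of all genes tested) and 0 were upregulated DEGs (beside 3.25% of all genes tested). Of the mitochondrially encoded subunits, 1 was an upregulated DEG. The smallest adjusted P among the 38 members was 0.563 (limma, Benjamini-Hochberg over all genes tested), so no member passed an adjusted threshold of 0.05. The nuclear count is thus not above the background, and the members other than NDUFS8 and ND4 did not pass even the unadjusted test. The difference between the nuclear and the mitochondrial genes was not tested.

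**Figure D1:**
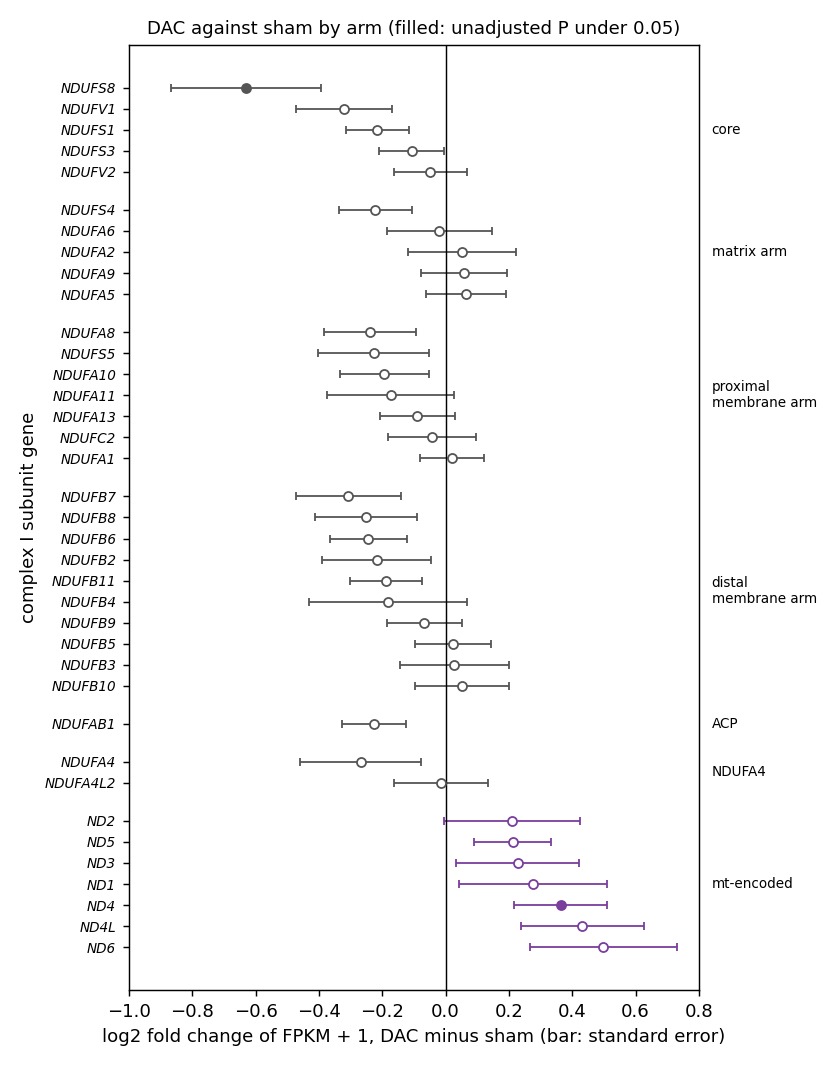
Log2 fold change of FPKM + 1 (x axis, DAC minus sham, n = 3 minipigs per group) of the complex I genes reported here (y axis), grouped by the part of the complex, with bars for the standard error from limma; gray points are nuclear and purple points mitochondrially encoded. Filled points have an unadjusted P under 0.05, which are NDUFS8 at -0.63 and ND4 at 0.36, and the 7 ND genes all lie right of 0.

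The DAC minipigs did not contribute equally. DAC replicate 4 was the lowest of the 6 samples in 20 of the 31 nuclear subunits (64.5%, beside 21.1% of all genes tested) and lay below all 3 sham samples in 22. The median nuclear subunit was at 82.6% of its sham mean in DAC replicate 4, 94.6% in DAC replicate 5 and 97.8% in DAC replicate 6, whereas the medians over all genes tested were 97.4%, 96.0% and 100.3%. DAC replicate 5 was the highest sample in 6 of the 7 mitochondrially encoded subunits, whose median there was 155.7% of the sham mean, against 104.9% in DAC replicate 4 and 108.4% in DAC replicate 6. Without DAC replicate 4 the median log2 fold change of the nuclear subunits was -0.05, and without DAC replicate 5 that of the mitochondrially encoded subunits was 0.11. The lower nuclear levels were therefore mostly those of DAC replicate 4, and the higher mitochondrial levels mostly those of DAC replicate 5.

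**Figure D2:**
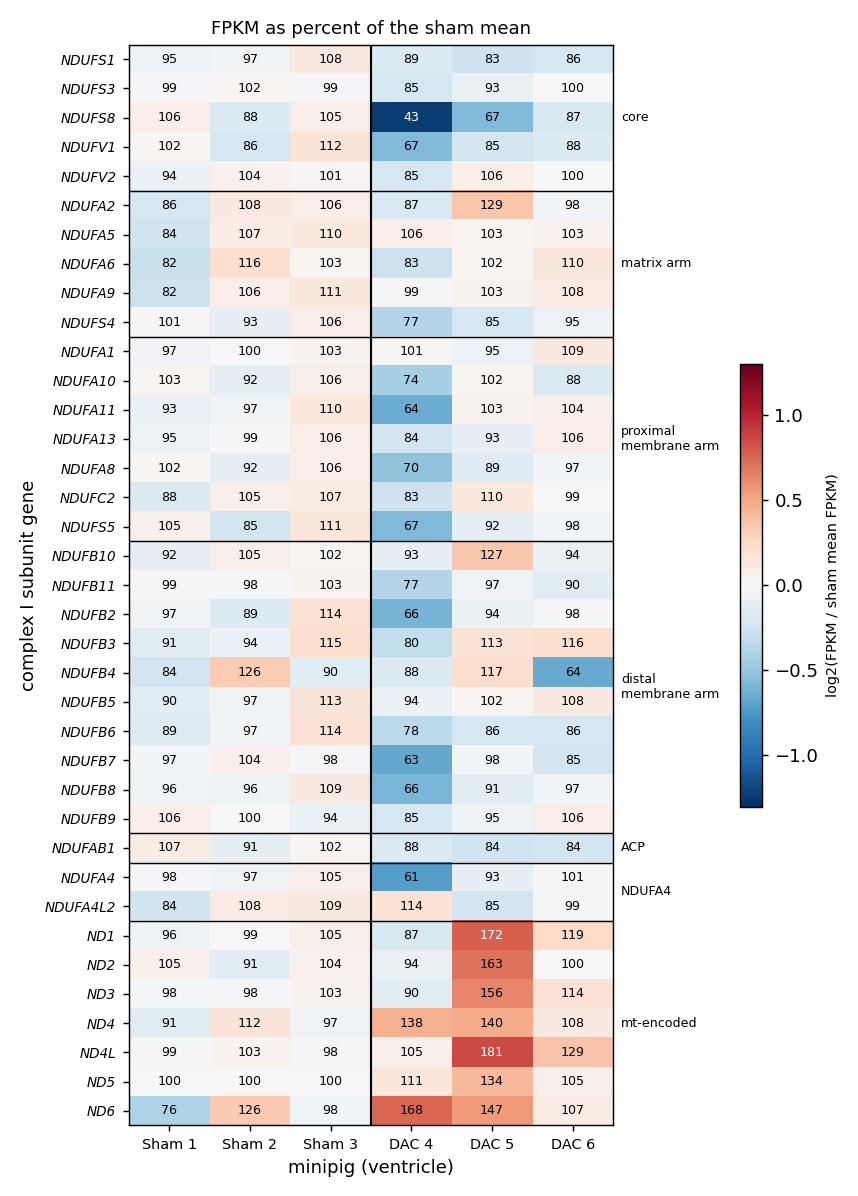
FPKM of the complex I genes reported here (rows, by part of the complex; ACP is the acyl carrier protein) in the 6 minipigs (columns), as percent of the mean of the 3 sham samples; color shows the log2 of that ratio. The column of DAC replicate 4 is blue for most nuclear genes, down to 43% for NDUFS8, and the column of DAC replicate 5 is red for the ND genes, up to 181% for ND4L.

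The summed FPKM of the 31 nuclear subunits was 3362, 3382 and 3583 in the sham samples. It was 2582, 3344 and 3316 in DAC replicates 4, 5 and 6. This sum includes NDUFA4, now assigned to cytochrome c oxidase, at 755, 746 and 803 FPKM in the sham samples. In DAC replicates 4, 5 and 6 NDUFA4 was at 468, 713 and 775.5 FPKM. The 7 ND genes summed to 24760, 27623 and 26225 FPKM in the sham samples and to 30647, 39577 and 29023 FPKM in DAC replicates 4, 5 and 6. Mitochondrial messages were thus more abundant than nuclear ones in every sample, by a ratio of sums between 7.32 and 8.17 in the sham group and between 8.75 and 11.9 in the DAC group. The groups did not overlap in this ratio, which was not tested. As a share of the FPKM outside the mitochondrial chromosome, the nuclear subunits were at 1.57%, 1.57% and 1.66% in the sham samples. This share was 1.26%, 1.61% and 1.56% in DAC replicates 4, 5 and 6, so that the groups overlapped. FPKM is scaled to the size of the library, so a rise of some genes lowers others. All mitochondrially encoded genes together made up from 24.0% to 25.3% of the summed FPKM of a sham sample. They made up from 27.1% to 32.8% of the summed FPKM of a DAC sample, which is not the share of fragments. With the sum of the other genes set equal in each sample, the median log2 fold change of the nuclear subunits was -0.14, and after quantile normalization it was -0.10. In ventricular pieces, fewer cardiomyocytes and less of a message per cardiomyocyte cannot be told apart.

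Cell type markers were read beside these values. The summed FPKM of 7 cardiomyocyte markers was between 13250 and 14150 in the sham group and between 12650 and 15550 in the DAC group, with 1 marker a downregulated DEG. This sum was highest in DAC replicate 4, the sample with the lowest nuclear subunits. The 6 fibroblast markers summed to between 472.9 and 547.2 FPKM in the sham group and to between 678.5 and 768.1 FPKM in the DAC group, without overlap, and 4 of them were upregulated DEGs. The summed endothelial, smooth muscle, leukocyte and red blood cell markers overlapped between the groups. Among these genes 1 endothelial and 1 smooth muscle marker were upregulated DEGs, and 1 endothelial and 1 leukocyte marker were downregulated DEGs. ADIPOQ, the single adipocyte marker found, was at most 0.6 FPKM. MYL4, an atrial light chain and the single atrial marker found, was at 9.22 FPKM in DAC replicate 4 and 17.6 FPKM in DAC replicate 6, against at most 3.79 FPKM in the other samples. The part of these differences in the values of complex I was not tested.

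The nuclear core subunits carry the electron path. All 6 that the table names averaged lower after DAC, as did NDUFS7, with log2 fold changes between -0.63 and -0.05. NDUFV1 (ENSSSCG00000012896, chromosome 2 from 4958508 to 4964208), which binds NADH and the flavin, was the most abundant at 228, 192 and 251 FPKM in the sham samples and 150, 189 and 198 FPKM in the DAC samples. The groups overlapped through sham replicate 2, and the log2 fold change was -0.32 (standard error 0.15, unadjusted P = 0.0719 and adjusted P = 0.596 from limma).

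NDUFS1 (ENSSSCG00000016127, chromosome 15 from 109409770 to 109451676), the largest core subunit and a carrier of iron-sulfur clusters, had closely grouped DAC samples. It was at 60.2, 61.5 and 68.7 FPKM in the sham samples and 56.2, 52.5 and 54.6 FPKM in the DAC samples. All DAC samples lay below all sham samples, and the log2 fold change was -0.22 (standard error 0.10, unadjusted P = 0.0687 from limma). Here DAC replicate 5, not 4, was the lowest. The remaining core subunits had smaller differences. NDUFS3 (ENSSSCG00000032081, chromosome 2 from 15031149 to 15036880), a scaffold next to the quinone site, was at 142 ± 2.57 FPKM in the sham group and 132 ± 10.9 FPKM in the DAC group (SD, n = 3), with DAC replicate 6 inside the sham range. NDUFV2 (ENSSSCG00000038826, chromosome 6 from 98815882 to 98852576), which holds an iron-sulfur cluster beside NDUFV1, was at 82.8 ± 4.20 FPKM in the sham group and 80.3 ± 8.70 FPKM in the DAC group. Its log2 fold change was -0.05 with a standard error of 0.12. The unnamed gene at the position of NDUFS7, which holds the last iron-sulfur cluster of the chain, was at 87.4 ± 14.0 FPKM in the sham group and 81.1 ± 14.2 FPKM in the DAC group, and its span lies inside that of DAZAP1 on the same strand.

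NDUFS8 (ENSSSCG00000037455, chromosome 2 from 4848599 to 4885860), which carries iron-sulfur clusters between NDUFS1 and NDUFS7, was the single nuclear DEG. It was at 27.5, 22.9 and 27.2 FPKM in the sham samples and 11.02, 17.4 and 22.4 FPKM in the DAC samples. The groups were separated only by the small gap between sham replicate 2 and DAC replicate 6, and the lowest value was that of DAC replicate 4. The log2 fold change was -0.63 (standard error 0.24, unadjusted P = 0.0318 and adjusted P = 0.563 from limma). The call was lost with the variance of NDUFS8 estimated on its own and without sham replicate 1, sham replicate 3, DAC replicate 4 or DAC replicate 5. The log2 fold change was -0.37 without DAC replicate 4.

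The span of NDUFS8 shares 18617 bases, from 4848599 to 4867215, with TCIRG1, which encodes a subunit of the vacuolar proton pump and is read from the same strand. TCIRG1 was at 0.588, 5.68 and 0.791 FPKM in the sham samples and at 10.6, 7.06 and 1.33 FPKM in DAC replicates 4, 5 and 6. The samples with the most TCIRG1 were those with the least NDUFS8: DAC replicate 4 was the extreme of both, followed by DAC replicate 5, while sham replicates 1 and 3 were at the other end of both, and sham replicate 2 and DAC replicate 6, close to each other in NDUFS8, lay between. TCIRG1 itself had a log2 fold change of 1.17 with an adjusted P of 0.672 from limma. UNC93B1, a gene of the opposite strand, shares 30436 bases with the span of NDUFS8 and was between 1.88 and 3.28 FPKM. The program that assigned fragments is not given in the sources used here, and the part of the shared stretch in the NDUFS8 values was not tested. The spans of 22 of the 38 members touch another listed gene. Among those that do not, 0 were DEGs, and the medians were -0.18 for 13 nuclear and 0.23 for 3 mitochondrially encoded subunits.

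**Figure D3:**
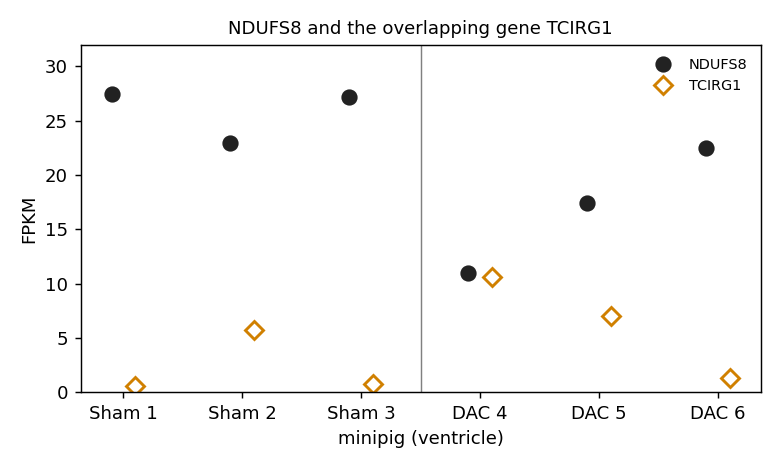
FPKM (y axis, linear from 0) of NDUFS8 (filled circles) and of the overlapping gene TCIRG1 (open diamonds) in each minipig (x axis). NDUFS8 is at 11.02 FPKM in DAC replicate 4, where TCIRG1 reaches 10.6 FPKM, and TCIRG1 is under 1 FPKM in sham replicates 1 and 3, where NDUFS8 is at 27.5 and 27.2 FPKM.

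The accessory subunits of the matrix arm had no common direction. With those that lack a symbol, 6 of 9 averaged lower after DAC (66.7%, beside 53.4% of all genes tested), at a median log2 fold change of -0.04. Of the 5 members named in the table, 2 averaged lower after DAC, and the median log2 fold change of the 5 was 0.05. NDUFA9 (ENSSSCG00000000719, chromosome 5 from 65759160 to 65788646), near the junction of both arms, was at 82.5 ± 12.8 FPKM in the sham group and 85.3 ± 3.46 FPKM in the DAC group. NDUFA5 (ENSSSCG00000037869, chromosome 18 from 23881867 to 23924133) had the highest log2 fold change of the nuclear members, 0.07, with 16.7, 21.3 and 21.8 FPKM in the sham samples and 21.3, 20.5 and 20.6 FPKM in the DAC samples. Sham replicate 1 was the lowest sample of NDUFA5, NDUFA9, NDUFA6 and NDUFA2, and without it NDUFA5 and NDUFA9 were slightly lower in the DAC group. The other named member, NDUFS4, an accessory subunit known from mutations in Leigh syndrome, was at 35.8 ± 2.29 FPKM in the sham group and 30.7 ± 3.18 FPKM in the DAC group. Its log2 fold change was -0.22.

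The 4 subunits of this arm without a symbol averaged lower after DAC. NDUFA7 was at 10.7, 10.3 and 9.78 FPKM in the sham samples and 8.22, 8.84 and 9.13 FPKM in the DAC samples. Its groups did not overlap, and the log2 fold change was -0.21 (standard error 0.10, unadjusted P = 0.0687 from limma). NDUFS6, NDUFV3 and NDUFA12 had log2 fold changes of -0.19, -0.10 and -0.04, with standard errors between 0.12 and 0.13.

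The accessory subunits of the membrane arm were mostly lowest in DAC replicate 4. In its proximal part, next to ND1 and ND2, 6 of 7 members averaged lower after DAC, at a median log2 fold change of -0.17 and a range from -0.24 to 0.02. DAC replicate 4 was the lowest sample in 6 of these 7 genes, among them NDUFA8, NDUFA10, NDUFA11 and NDUFS5, which were there at 69.8%, 74.1%, 64.0% and 67.3% of their sham means. NDUFA11 and NDUFS5 were at 103% and 92.2% in DAC replicate 5. NDUFA1, the other of the 7, had a log2 fold change of 0.02 and a standard error of 0.10. The unnamed gene at the position of NDUFA3 was at 87.6, 117 and 100.4 FPKM in the sham samples and 59.3, 100.2 and 96.0 FPKM in the DAC samples. Here too DAC replicate 4 stood below the other samples, and the log2 fold change of -0.28 had a standard error of 0.22.

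In the distal part, where the NDUFB subunits surround ND4 and ND5, 7 of 10 members averaged lower after DAC, with -0.19 as their median log2 fold change. NDUFB7 (ENSSSCG00000013778, chromosome 2 from 64718906 to 64723627), on the side of the intermembrane space, had the lowest log2 fold change among them. It was at 125, 135 and 127 FPKM in the sham samples and 81.4, 126 and 109 FPKM in the DAC samples, and its log2 fold change was -0.31 (standard error 0.17, unadjusted P = 0.105 from limma). DAC replicate 5 lay within the sham range. NDUFB10 (ENSSSCG00000030328, chromosome 3 from 40003109 to 40005589) went the other way, with 139, 159 and 154 FPKM in the sham samples and 140, 192 and 141 FPKM in the DAC samples. Its higher mean came from DAC replicate 5 alone. The span of NDUFB10 shares 515 bases with RPL3L, a gene of the opposite strand. RPL3L was at 110, 94.4 and 81.2 FPKM in the sham samples and 62.3, 106 and 77.3 FPKM in the DAC samples. The part of this stretch in the NDUFB10 values was not tested. NDUFB1, without a symbol in the table, had a log2 fold change of -0.20 with a standard error of 0.15, and its lowest sample was DAC replicate 5.

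Levels within the membrane arm differed more between subunits than between groups. NDUFB9 (ENSSSCG00000005976, chromosome 4 from 15075436 to 15113351), which binds the acyl carrier protein, had the highest level of the NDUFB genes at 332 ± 20.1 FPKM in the sham group and 318 ± 35.3 FPKM in the DAC group. NDUFB2 (ENSSSCG00000032390, chromosome 18 from 9132431 to 9150543) and NDUFB5 (ENSSSCG00000011764, chromosome 13 from 117656406 to 117678537) were among the 3 lowest nuclear members. NDUFB2 was at 15.3 ± 1.97 FPKM in the sham group and 13.1 ± 2.70 FPKM in the DAC group, and NDUFB5 at 19.95 ± 2.30 FPKM and 20.2 ± 1.42 FPKM. NDUFB4 had the largest standard error, 0.25, since sham replicate 2 was at 185 FPKM and DAC replicate 6 at 93.0 FPKM, with the other samples between 123 and 172 FPKM.

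All DAC samples lay below all sham samples in 5 of the 31 nuclear subunits (16.1%, beside 8.91% of all genes tested). These were NDUFS1, NDUFS8, NDUFB6, NDUFB11 and NDUFAB1, of which the last 3 are named after their values were seen. The exact two-sided permutation P of each is 0.10, the smallest that 3 against 3 minipigs allow. Groups that do not overlap always give this value, so it adds nothing to the choice of these genes. NDUFAB1, the mitochondrial acyl carrier protein that sits in both arms and also serves fatty acid synthesis, was at 59.2, 50.7 and 56.4 FPKM in the sham samples and 48.5, 46.4 and 46.6 FPKM in the DAC samples. The DAC samples of NDUFAB1 differed from each other by less than the sham samples did, and its log2 fold change was -0.23 (standard error 0.10, unadjusted P = 0.0615 from limma). NDUFB6 was at 22.7, 24.9 and 29.1 FPKM against 20.03, 22.0 and 21.9 FPKM, although its listed span of chromosome 10, from 33470106 to 33865231, also takes in 301477 bases of APTX on the same strand. NDUFB11 was at 68.4, 67.9 and 71.3 FPKM against 53.2, 67.0 and 62.4 FPKM, so that its groups were nearly in contact.

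NDUFA4 and NDUFA4L2 share the prefix but differ in place and level. NDUFA4 (ENSSSCG00000024313, chromosome 9 from 80637087 to 80644326), now assigned to cytochrome c oxidase, had the highest level of all nuclear members. It was at 755, 746 and 803 FPKM in the sham samples and 468, 713 and 775 FPKM in the DAC samples. DAC replicate 6 was within the sham range, and the log2 fold change of -0.27 had a standard error of 0.19. NDUFA4L2 (ENSSSCG00000027621, chromosome 5 from 22535740 to 22549354), a paralog known to be induced by hypoxia, was the lowest member at 9.23 ± 1.31 FPKM in the sham group and 9.13 ± 1.34 FPKM in the DAC group. Its log2 fold change of -0.01 was far smaller than its standard error of 0.15, and its sign changed with the scaling. The mean over 6 samples thus ran from 9.18 FPKM for NDUFA4L2 to 710 FPKM for NDUFA4, with a median of 65.0 FPKM over the 31 members.

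The 7 mitochondrially encoded subunits all averaged higher after DAC, but not in the same animals. ND4 (mitochondrial chromosome from 11359 to 12736), a proton-pumping subunit, had the highest level of the complex and was the single upregulated DEG. It was at 8184, 10150 and 8777 FPKM in the sham samples and 12483, 12674 and 9797 FPKM in the DAC samples. DAC replicates 4 and 5 were above all sham samples, whereas DAC replicate 6 was below sham replicate 2. The log2 fold change was 0.36 (standard error 0.15, unadjusted P = 0.0409 and adjusted P = 0.584 from limma). The call was lost after quantile normalization, with the variance of ND4 estimated on its own, and without sham replicate 1, sham replicate 3, DAC replicate 4 or DAC replicate 5.

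ND6 (from 14739 to 15266), the single subunit encoded on the opposite strand, was likewise high in DAC replicates 4 and 5. It was at 1567, 2607 and 2016 FPKM in the sham samples and 3462, 3035 and 2208 FPKM in the DAC samples, and DAC replicate 6 again lay below sham replicate 2. Its log2 fold change was the largest of the 7 at 0.50, with a standard error of 0.23 (unadjusted P = 0.0686 from limma). The library kit is not stated to keep the strand, so reads of the opposite strand over ND6 cannot be set apart. Of the 6 other mitochondrially encoded protein genes, all averaged higher after DAC and 2 were upregulated DEGs (33.3%, beside 3.25% of all genes tested). These were ATP6 and ATP8, subunits of ATP synthase, with log2 fold changes of 0.37 and 0.44 (adjusted P = 0.531 and 0.584 from limma). All DAC samples were above all sham samples in ATP6, as in 16.7% of this list, beside 6.01% of all genes tested. In ATP8 this held for DAC replicates 4 and 5, and DAC replicate 6 lay below sham replicate 2. Mitochondrial messages are cut from shared long precursors, so these genes are not independent counts. Their change under the other scalings is not given here.

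ND1, ND2, ND3 and ND4L were high in DAC replicate 5 alone or mainly. ND1 (from 3922 to 4876), which forms the ubiquinone channel where the arms meet, was at 3228, 3348 and 3530 FPKM in the sham samples and 2918, 5781 and 4019 FPKM in the DAC samples. DAC replicate 4 was thus the lowest of all 6 samples and DAC replicate 5 the highest, and the log2 fold change of 0.28 had a standard error of 0.23. ND2 (from 5087 to 6128), another proton-pumping subunit, was at 2471, 2135 and 2456 FPKM in the sham samples and 2208, 3831 and 2366 FPKM in the DAC samples. Its log2 fold change was 0.21, and it was -0.04 without DAC replicate 5.

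ND3 (from 10653 to 10998), a small subunit with a loop near the ubiquinone site, was at 3352, 3355 and 3513 FPKM in the sham samples and 3071, 5304 and 3894 FPKM in the DAC samples. Here too DAC replicate 4 was the lowest sample, and the log2 fold change was 0.23 with a standard error of 0.19. ND4L (from 11069 to 11365), a small membrane subunit whose reading frame overlaps that of ND4 by 7 bases, was at 1995, 2080 and 1976 FPKM in the sham samples and 2115, 3658 and 2601 FPKM in the DAC samples. All DAC samples of ND4L lay above all sham samples, DAC replicate 4 by a small margin, and the log2 fold change was 0.43 (standard error 0.20, unadjusted P = 0.0618 from limma).

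ND5 (from 12935 to 14755), the most distal proton-pumping subunit, had the narrowest sham values, 3964, 3948 and 3958 FPKM, and was at 4390, 5294 and 4138 FPKM in the DAC samples. The log2 fold change was 0.21 (standard error 0.12, unadjusted P = 0.123 from limma). Groups that did not overlap, with all DAC samples higher, were thus found in 2 of the 7 subunits, ND4L and ND5, beside 6.01% of all genes tested. The SD between DAC samples exceeded that between sham samples for all 7, and for 22 of the 31 nuclear subunits (71.0%, beside 58.1% of all genes tested). By mean level the 7 genes ran from ND4 over ND5, ND1 and ND3 to ND2, ND6 and ND4L, with ND4L at 2404 FPKM. In this order ND1 and ND3 differed by less than the spread between DAC samples, as did ND2, ND6 and ND4L.

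**Figure D4:**
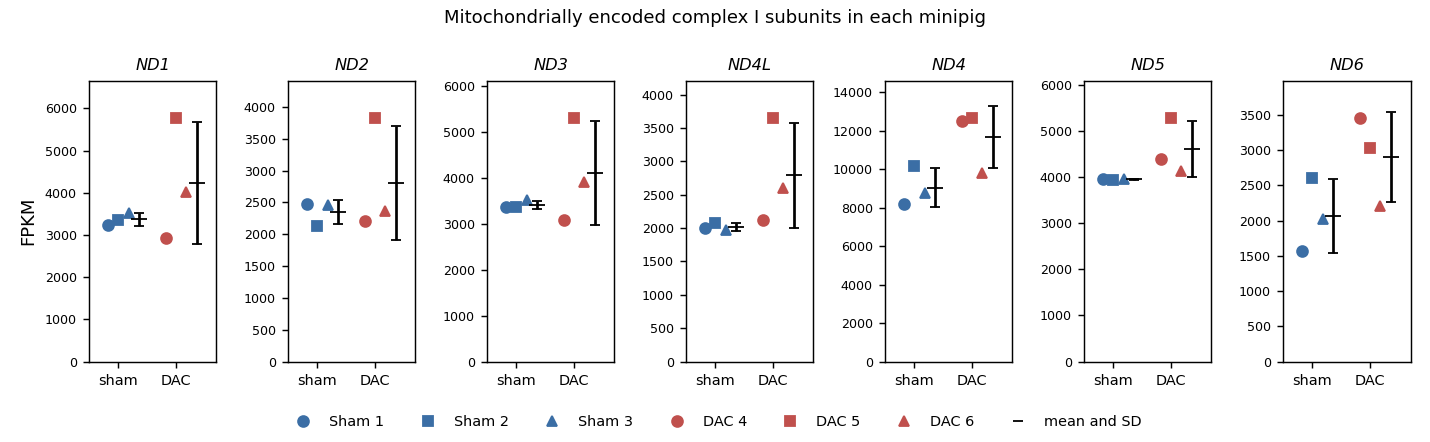
FPKM (y axis of each panel, linear from 0) of the 7 mitochondrially encoded subunits in each minipig, sham in blue and DAC in red, with the mean and SD of each group in black (n = 3). DAC replicate 5 (red squares) is the highest sample in all panels but ND6, and DAC replicate 4 (red circles) is within or below the sham samples for ND1, ND2 and ND3 but above them for ND4, ND4L, ND5 and ND6.

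Genes that act around the subunits were read from lists of assembly factors and of genes for mitochondrial transcription and RNA. Both lists were written with earlier results of these data known, so their shares of DEGs are descriptive only. Of 17 tested assembly factors, 14 averaged lower after DAC (82.4%, beside 53.4% of all genes tested). Of these factors 3 were downregulated DEGs (17.7%, beside 5.27% of all genes tested) and 0 were upregulated DEGs. Their median log2 fold change was -0.12. OXA1L, which inserts mitochondrially made proteins into the inner membrane, was at 29.4, 28.9 and 30.6 FPKM in the sham samples and 22.4, 24.9 and 25.3 FPKM in the DAC samples. TIMMDC1, which helps to build the arm around ND1, was at 13.5, 12.2 and 13.8 FPKM against 10.97, 11.1 and 9.74 FPKM. FOXRED1, another assembly factor, was at 13.3, 15.0 and 14.1 FPKM against 11.7, 11.5 and 9.74 FPKM. The groups did not overlap in any of these genes, which are named because they were DEGs. Their log2 fold changes were -0.28, -0.29 and -0.34 (adjusted P = 0.553, 0.553 and 0.522 from limma). DAC replicate 6 was the lowest sample of TIMMDC1 and FOXRED1. The number of downregulated assembly factors was 1 after quantile normalization, without sham replicate 1 or without sham replicate 3, and 5 without DAC replicate 5.

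Of 27 tested genes for mitochondrial transcription and RNA, 19 averaged lower after DAC (70.4%, beside 53.4% of all genes tested), 1 was a downregulated DEG and 0 were upregulated DEGs. The downregulated share, 3.7%, is not above the 5.27% of all genes tested. Their median log2 fold change was -0.07. The DEG was TWNK, the helicase of mitochondrial DNA, which like POLG and POLG2 on this list serves replication of that DNA. TWNK was at 6.55, 2.81 and 3.43 FPKM in the sham samples and 1.49, 1.703 and 2.25 FPKM in the DAC samples (log2 fold change -0.85, adjusted P = 0.509 from limma). Its groups did not overlap, but sham replicate 1 stood apart from the other sham samples. TFAM, which packages mitochondrial DNA and starts its transcription and is named after its values were seen, went the other way with 12.5 FPKM in the sham group and 15.3 FPKM in the DAC group (log2 fold change 0.29, unadjusted P = 0.0696 from limma). The number of downregulated genes in this list was 6 without DAC replicate 5, 2 without sham replicate 1 or sham replicate 3, 2 with sample weights, and 0 with a minimum of 5 FPKM or with the variance of each gene on its own.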

How the data were processed

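Total RNA from ventricular tissue of 3 sham and 3 DAC minipigs went into NEBNext Ultra libraries, which an Illumina HiSeq platform read from both ends. The authors deposited 1 table of FPKM with a column per minipig. Their processing notes name HISAT2 and the build susScr11. The quantification program is not given in the sources used here. The highest sample of every gene in the table has at least 0.500 FPKM. Depth is unknown: no steps of whole reads were seen, since the most frequent ratio between samples was shared by 6 of at least 6520 genes.

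log2(FPKM + 1) was compared between the groups with limma 3.58.1 (R 4.3.3), with a variance trend over the mean, on the 11029 genes that reached 1 FPKM in 3 or more of the 6 samples, and P was adjusted by the Benjamini-Hochberg method. All 38 members passed this filter. On simulated data with 11029 genes, 189 of 200 genes with a log2 change of 1 were called, all drawn from genes of higher mean level. The members had smaller log2 fold changes, from -0.63 to 0.50, and the calling of changes of that size was not simulated. Figures used matplotlib 3.10.9. Symbols came from the table, from gene identifiers for 520 genes, or, for 4 subunits, from RefSeq positions (at least 90% of the RefSeq span covered). Named genes are all ND genes and nuclear core subunits, the DEGs, the 3 highest, the 3 lowest and the 3 most changed nuclear members in each direction, NDUFA4 and NDUFA4L2, and others where stated. The values of 1 nuclear core subunit enter the counts but are not reported here. Members and lists were chosen with earlier results of these data known. The alternatives were another filter, pseudocount, scaling, variance model or sample weights, and each sample left out in turn. No sequences are printed.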

Additional observations from a re-analysis of the deposited data

How the results depend on the processing

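The depth behind each FPKM is unknown, 3 minipigs per group limit the precision, and no member passed an adjusted P under 0.05. No paired analysis was possible because the groups share no replicate numbers. Of all genes tested, 581 were downregulated and 358 upregulated DEGs, against 408 and 502 with the mitochondrially encoded genes left out, 479 and 429 after median scaling and 469 and 418 after quantile normalization. The number of downregulated nuclear subunits was 1, but 2 with the variance of each gene on its own, and 0 among members that overlap no other listed gene, a choice made after seeing the data. With 1 sample left out it was from 0 (sham replicate 3 or DAC replicate 4) to 3 (sham replicate 2). Their median log2 fold change was then from -0.215 to -0.048. The number of upregulated ND genes was 1, but 0 after quantile normalization, with the variance of each gene on its own and among members without overlap, 2 with sample weights, and from 0 (sham replicate 1, sham replicate 3 or DAC replicate 5) to 3 (DAC replicate 4) with 1 sample left out. Quantile normalization took the median log2 fold change of the ND genes to 0.014, with values below 0 for ND2 (-0.029), ND3 (-0.085) and ND5 (-0.042), and gave NDUFA4L2 0.020, NDUFB9 0.027 and NDUFV2 0.033. NDUFA4L2 was at 0.008 after median scaling and 0.026 with the mitochondrially encoded genes left out. When samples were dropped singly, the log2 fold change changed sign for ND2 (-0.040 to 0.358), NDUFA4L2 (-0.125 to 0.083), NDUFA5 (-0.052 to 0.132), NDUFA9 (-0.074 to 0.139), NDUFB10 (-0.097 to 0.130), NDUFB5 (-0.044 to 0.109), NDUFB9 (-0.146 to 0.014) and NDUFV2 (-0.112 to 0.040). The number of downregulated assembly factors, 3, was 1 after quantile normalization and from 1 to 5 with a sample dropped, and their median was -0.203 at a minimum of 5 FPKM. Of the mitochondrial transcription and RNA genes, 1 was downregulated, but 0 at a minimum of 5 FPKM (median -0.186) or with the variance of each gene on its own, 2 with sample weights and from 1 to 6 with a sample dropped, when the median was from -0.140 to -0.036. Upregulated genes in that list numbered 0, but 1 after quantile normalization or without the mitochondrially encoded genes, and from 0 to 1 with a sample dropped. Of the 323 values of the 22 genes chosen for naming under the alternatives, 283 kept direction and side of the threshold. Only NDUFS8 and ND4 among the 22 were called in the main setting, so for the others this means staying uncalled with the same sign. A call was lost in 11 of the values, all of NDUFS8 or ND4. The causes were not tested.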
